A study of Homo sapiens with 10 samples.

Results

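Tumour cells can hold off an immune attack through proteins that they display or secrete, and the genes of 10 such proteins were followed here through acquired drug resistance in melanoma cell lines. The genes were CD274, PDCD1LG2, CD276, NT5E, LGALS3, LGALS9, TNFRSF14, PVR, CD47 and CD200, picked out by symbol from the 57955 genes of the deposited tables. The rule that picks them uses no measured value, although the list was drawn up with earlier results of these data known. All 10 were found once. RNA of 5 BRAF-mutant melanoma lines was sequenced, each as the original drug-sensitive line and as a resistant line (E+BRes) derived from it, with 1 library per line and state. WM983A, WM278 and WM902B came from primary tumours and WM983B and WM1617 from metastases. WM983A and WM983B are from 1 patient and WM278 and WM1617 from another, so the 5 lines stand for 3 patients. All cells were grown in RPMI-1640 with serum and glutamine. The resistant lines had been taken from 1 nM to 200 nM of encorafenib, a BRAF inhibitor, plus binimetinib, a MEK inhibitor, over 3 to 5 months, and were then kept at 200 nM, so resistance and the presence of drug cannot be told apart. The lines were grown without immune cells.

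Immune checkpoints are receptors on T cells, NK cells and macrophages that dampen their activity when a ligand on another cell engages them. PD-L1 (CD274) and PD-L2 (PDCD1LG2) engage PD-1, CD155 (PVR) engages TIGIT, HVEM (TNFRSF14) engages BTLA, CD47 engages SIRPα on macrophages, and CD200 engages CD200R1 on myeloid cells. CD73 (NT5E) acts as an enzyme that makes extracellular adenosine, which suppresses T cells, and galectin-3 and galectin-9 (LGALS3, LGALS9) bind sugars on T cell surface proteins. Interferon gamma, acting through JAK kinases and IRF1, is the best known inducer of PD-L1 in tumour cells.

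Sequence upstream of the genes is shown first for 3 of them, CD274 and LGALS9 because they were the 2 members with an interferon-type motif, and CD200 because it was lower in each line that expressed it. The windows are RefSeq promoters on GRCh38.p14, from 250 bases before to 50 bases after the annotated start, and 9 of the 10 members had one. Capitals mark letters that match a motif on either strand. The motifs searched were AP-1 (TGANTCA), the interferon regulatory factor motif IRF (GAAA and GAAA with any 2 bases between them), the GAS motif (TTCNNNGAA) and Sp1 (GGGCGG). CD274, plus strand, chr9:5450292-5450591, had 2 overlapping IRF matches at -208 and -202, a GAS match at -125 and an Sp1 match at -63 from the start. LGALS9, plus strand, chr17:27630938-27631237, had an IRF match at -9. CD200, plus strand, chr3:112332906-112333205, had no match to any of the 4 motifs.
CD274: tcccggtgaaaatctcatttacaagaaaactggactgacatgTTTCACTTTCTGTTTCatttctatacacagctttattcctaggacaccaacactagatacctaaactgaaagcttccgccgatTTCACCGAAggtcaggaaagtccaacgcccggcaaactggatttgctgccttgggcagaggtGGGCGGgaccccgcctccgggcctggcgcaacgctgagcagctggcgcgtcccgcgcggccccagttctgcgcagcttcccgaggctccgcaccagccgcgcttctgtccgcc
LGALS9: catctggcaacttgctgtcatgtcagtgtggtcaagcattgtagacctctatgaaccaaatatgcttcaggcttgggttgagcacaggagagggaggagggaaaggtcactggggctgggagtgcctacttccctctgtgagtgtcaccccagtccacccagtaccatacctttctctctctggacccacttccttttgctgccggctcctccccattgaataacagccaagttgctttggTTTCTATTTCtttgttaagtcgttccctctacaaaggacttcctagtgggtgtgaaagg
CD200: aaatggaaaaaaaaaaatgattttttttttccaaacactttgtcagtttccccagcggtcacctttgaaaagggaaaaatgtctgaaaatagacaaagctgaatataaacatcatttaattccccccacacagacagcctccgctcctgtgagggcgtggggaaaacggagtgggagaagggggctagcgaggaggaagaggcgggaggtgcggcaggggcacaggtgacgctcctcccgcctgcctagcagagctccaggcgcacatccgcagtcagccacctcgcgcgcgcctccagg
Of 35116 RefSeq promoters of this length, 3.57% held the IRF motif, 7.66% GAS, 7.71% AP-1 and 45% Sp1. AP-1 letters were found in none of the members' windows. Sp1 letters were also present in the windows of NT5E, CD276, LGALS3 and CD47. A match describes letters only, since binding was not measured.

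The sensitive libraries held 13970608 to 16966008 counts and the resistant ones 13693922 to 18033247, and 3 counts, the smallest level taken as detectable, equalled 0.166 to 0.219 CPM, that is, counts scaled to the library total. Levels are given as normalised counts, that is, expected counts rounded and scaled by TMM to a common library of 15303632 counts. The resistant WM983A library stood apart. Over all tested genes it correlated more strongly with sensitive WM902B (r = 0.813) than with sensitive WM983A (r = 0.787), while the other 4 resistant libraries correlated best with their own line. The melanocyte regulator SOX10 had 4640 to 5237 normalised counts in the sensitive libraries, 4195 in resistant WM278 and 5151 in resistant WM1617, but 96.9, 194 and 10.3 in resistant WM983A, WM983B and WM902B. Other melanocyte markers did not all follow SOX10. Sensitive WM278 had MITF at 163, PMEL at 66.6, TYR at 8.56 and DCT at 14.3. The other sensitive lines had at least 3993, 6962, 641 and 4898. In WM983A, WM983B and WM902B, MITF, PMEL, TYR, DCT and S100B were lower. MLANA was higher in WM983B (log2 ratio 2.04) and TYRP1 in WM902B (0.96). Of 8 melanocyte markers, all of which passed the filter on low counts, 1 was lower by the unadjusted rule given below (TYRP1). So was 1 of 6 markers of dedifferentiated melanoma (NGFR). That rule called 4.42% of all tested genes in either direction. Neither TYRP1 nor NGFR was called with cell line as a block, where TYR was lower and JUN higher instead. The others of the 6 were mixed in WM983A, WM983B and WM902B. EGFR was at log2 ratios of 5.59, 3.21 and 3.72 and JUN at 3.02, 2.61 and 3.06. FOSL1 was lower, at -1.28, -0.29 and -2.24. AXL was at 1.57, -0.18 and 1.03, and WNT5A at -5.54, 2.81 and 2.88. The median fitted log2 fold change was 0.34 for these 6, -1.19 for the 8 melanocyte markers and 0.03 for all tested genes. Of 9 leukocyte markers, 2 passed that filter (LYZ and ITGAM), CD3D was at 0 in every library, PTPRC was at 5.44 or below, and the summed level was 16.2 to 76.2 in sensitive and 1.95 to 98.5 in resistant libraries. The highest of these sums, in resistant WM983B, was mostly CD14 at 78.2, in the library with the highest LGALS9. No endothelial or keratinocyte marker passed the filter. The part of these differences in the members' levels was not tested, and in bulk cultures fewer expressing cells and less RNA per cell cannot be told apart.

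No member differed between the 5 resistant and the 5 sensitive libraries in the test across all genes. Of the 17287 genes that passed the filter, 8 were members, and PDCD1LG2 and LGALS9 did not pass. By edgeR's quasi-likelihood test with Benjamini-Hochberg adjustment, 0 of the 8 were called, against 0% of all tested genes, where 1235 had an unadjusted p of at most 0.05. DESeq2 called 105 genes and no member. At an unadjusted p of at most 0.05 with at least a 2-fold change, 0 of 8 members were called against 4.42% of all tested genes. The members' p-values in that edgeR fit ran from 0.282 for CD200 to 0.794 for PVR, and their smallest adjusted p was 0.852. The median fitted log2 fold change of the 8 was -0.28, with 2 above and 6 below 0, and that of all tested genes was 0.03. The exact two-sided permutation test, whose smallest possible p is 0.00794, gave 0.0952 for LGALS9 and 0.238 to 0.889 for the other 9, and the adjusted values of the 8 members tested were 0.853 to 0.986.

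**Figure D1:**
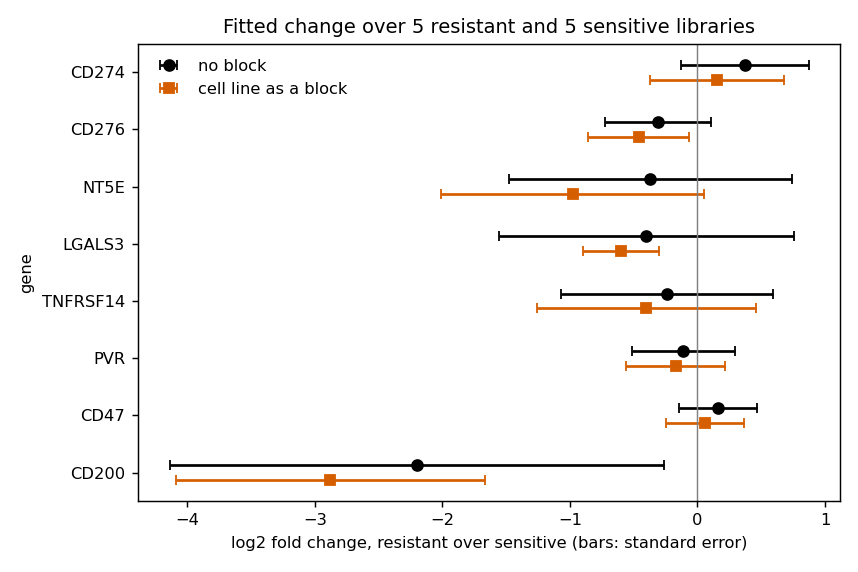
Log2 fold change (x axis) of the 8 members that passed the filter (y axis), resistant over sensitive, from edgeR over 5 against 5 libraries. Points are estimates and bars standard errors, black without a block and orange with cell line as a block. CD200 lies farthest from 0, at -2.20 without and -2.88 with the block, and every other estimate lies between -0.98 and 0.37.

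Within single lines the same genes differed widely, in directions that varied between lines. These ratios have no replicate and no test, and their 95% intervals cover counting error only. In WM983A, 9 of 10 members differed at least 2-fold, 4 higher and 5 lower, where 36.3% of tested genes did. PDCD1LG2 and LGALS9 are among the 9 at 2 against 5 counts each, with a counting interval of 0.476 to 30.5 for the fold. In WM983B the count was 4 of 10 against 27.6%, in WM278 5 of 10 against 19.1%, and in WM902B 5 of 10 against 27.4%. In WM1617 no member differed 2-fold, against 6.64% of tested genes. No member had the same direction in all 5 lines, where 11.1% of tested genes did. The 10 members include PDCD1LG2 and LGALS9, which did not pass the filter, while the shares cover only genes that did. Both are among the members that differed 2-fold in WM983B and WM902B, and LGALS9 is among those in WM278.

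**Figure D2:**
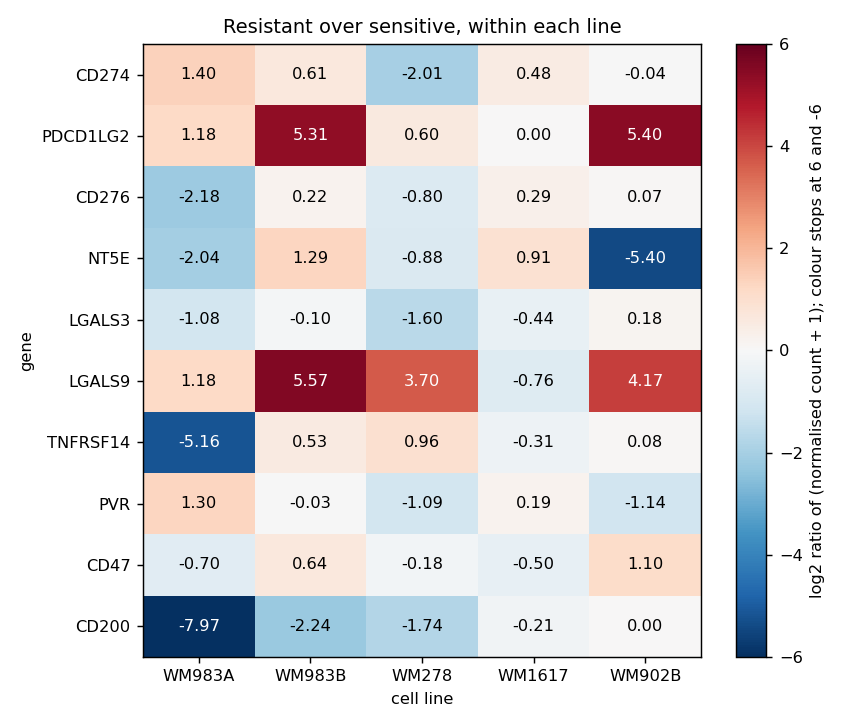
Log2 ratio of (normalised count + 1), resistant over sensitive, for each gene (rows) in each line (columns), with red for higher and blue for lower in the resistant line and the colour held at 6 and -6. The column of WM1617 lies between -0.76 and 0.91, CD200 in WM983A is at -7.97, and LGALS9 in WM983B (5.57) and PDCD1LG2 in WM983B and WM902B (5.31 and 5.40) are the highest, the last 2 over a count of 0.

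The PD-1 ligands were among the 4 scarcest members, with LGALS9 and CD200, by the median over libraries with or without a length correction. CD274 (ENSG00000120217, chr9:5450503-5470566) had 41.7, 40.1, 50.4, 27.2 and 51.9 normalised counts in sensitive WM983A, WM983B, WM278, WM1617 and WM902B, and 112, 61.8, 11.7, 38.4 and 50.5 in the resistant lines in the same order, which is the order of lines used throughout. The resistant lines thus held both the highest and the lowest level, and the groups overlapped. CD274 was 2.68-fold higher in resistant WM983A (counting interval 1.85 to 3.95) and 4.3-fold lower in resistant WM278 (2.27 to 8.84), and within 1.54-fold in the other 3 lines. Over all libraries the fitted log2 fold change was 0.37 (SE 0.501, edgeR adjusted p = 0.915), and it was -0.08 without the resistant WM983A library.

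PDCD1LG2 (ENSG00000197646, chr9:5510531-5571282), beside it on chromosome 9, had 1.98, 0, 112, 0 and 0 normalised counts in the sensitive lines and 5.77, 38.6, 171, 0 and 41.3 in the resistant ones. Among the sensitive lines it was above 3 counts in WM278 alone, and it was detected in resistant WM983B and WM902B, where the sensitive lines had no count. Against a floor of 3 counts it was at least 12.8-fold higher in resistant WM983B and at least 13.5-fold higher in resistant WM902B, and it was 1.52-fold higher in WM278 (counting interval 1.2 to 1.94). In the fit with no filter on low counts it was higher by 1.11 on the log2 scale (SE 1.71, edgeR adjusted p = 0.859). PDCD1LG2 was higher beyond counting error in WM983B, WM902B and WM278. There CD274 was 1.54-fold higher in WM983B, did not differ beyond counting error in WM902B (49 against 51 counts), and was 4.3-fold lower in WM278. In WM983A, CD274 was 2.68-fold higher, but PDCD1LG2 had only 5 against 2 counts (counting interval of the fold 0.476 to 30.5).

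The chromosome 9 genes around the pair were also higher in resistant WM983A. Of the 3 nearest tested protein-coding genes on each side, RCL1, PLGRKT, RIC1, ERMP1 and KIAA2026 had log2 ratios of 1.52, 1.77, 1.54, 2.10 and 1.61 in that line and JAK2 0.52, so 5 of 6 were at least 2-fold higher, against 16.8% of all tested genes. In the other 4 lines these 6 genes lay between -1.07 and 0.71. A wider window was then chosen after these values had been seen. The 36 tested genes within 5 Mb, CD274 left out and the 6 above included, had a median log2 ratio of 0.75 in WM983A. Of these 36, 16 (44.4%) were at least 2-fold higher there. The remaining 626 tested genes of chromosome 9 had a median of 0.50, and 30.5% were at least 2-fold higher. For all tested genes these values were 0.02 and 16.8%. In the other lines the medians of the 36 genes lay between -0.23 and -0.09. The part of the position in the CD274 level of WM983A was not tested.

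**Figure D3:**
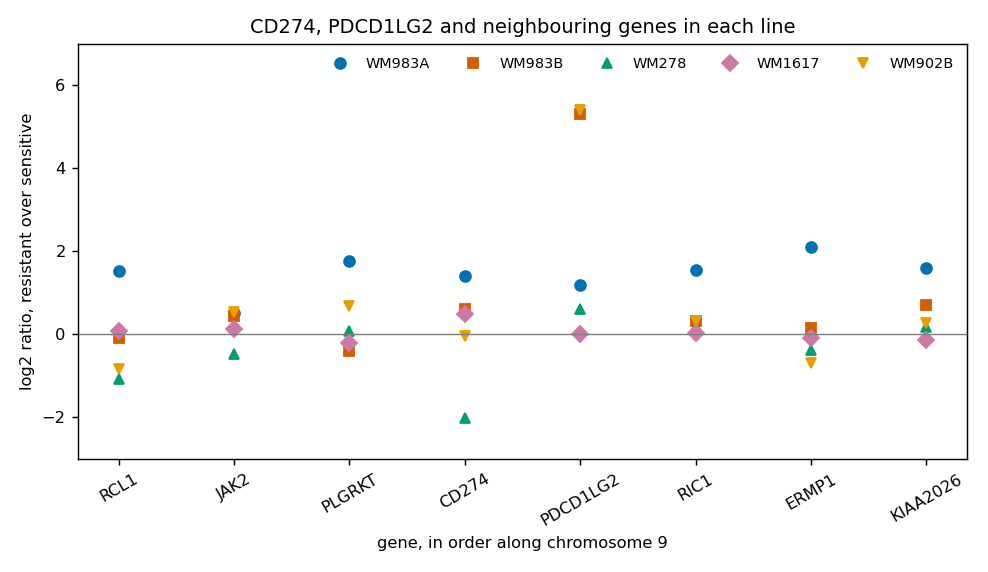
Log2 ratio, resistant over sensitive (y axis), of CD274, PDCD1LG2 and the 3 nearest tested protein-coding genes on each side, in their order along chromosome 9 (x axis), with 1 symbol per line. WM983A lies at 0.52 to 2.10 for all 8 genes, while PDCD1LG2 stands alone at 5.31 and 5.40 in WM983B and WM902B.

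Genes of the interferon gamma route and of PD-L1 handling were taken as a fixed list of 13, all of which passed the filter. By the unadjusted rule, 1 was higher and 1 lower, against 4.42% of all tested genes in either direction, and none passed after adjustment. The higher one was NLRC5, the activator of MHC class I genes (log2 fold change 1.60, edgeR adjusted p = 0.699), and the lower one IFNGR2, a chain of the interferon gamma receptor (-1.17, edgeR adjusted p = 0.632). With cell line as a block, IFNGR2 was still called and NLRC5 was not (log2 fold change 0.82, adjusted p = 0.62). STAT3 had the smallest p of the list (log2 fold change 0.85, edgeR adjusted p = 0.63), and JAK1 was at 0.52 (adjusted p = 0.694). Beside PDCD1LG2, the transcription factor IRF1 was higher in the same lines, at 3300 against 790 normalised counts in WM983B and 1714 against 322 in WM902B. In the other 3 lines the log2 ratios of IRF1 were -0.88, 0.60 and 0.15. CMTM6, which holds PD-L1 at the cell surface, had ratios from -0.82 to 0.97.

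CD276 (B7-H3, ENSG00000103855, chr15:73683966-73714514), a B7 family protein with no settled receptor, spanned 2.1-fold over the sensitive lines. It had 2418, 1152, 1468, 2246 and 1832 normalised counts in the sensitive lines and 532, 1342, 842, 2742 and 1929 in the resistant ones. Only resistant WM983A passed 2-fold, 4.55-fold lower (counting interval 4.12 to 5.04), and WM278 was 1.74-fold lower. The fit over all lines gave -0.31 on the log2 scale (SE 0.414, edgeR adjusted p = 0.912), and 0.02 without WM983A.

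Galectin-9 was far higher in 3 resistant lines, from a very low start. LGALS9 (ENSG00000168961, chr17:27629798-27649560) had 1.98, 14.0, 0.951, 2.18 and 2.03 normalised counts in the sensitive lines and 5.77, 716, 24.4, 0.874 and 53.6 in the resistant ones. Resistant WM983B, WM278 and WM902B were above every sensitive library, resistant WM983A lay within the sensitive range, and resistant WM1617 held 1 count, under the floor of 3. The fold was 51.0 in WM983B (counting interval 30.2 to 93.7), 26.4 in WM902B (6.94 to 223, from 2 counts) and 25.7 in WM278 (4.20 to 1054, from 1 count). Without the filter, edgeR put the difference at 5.15 on the log2 scale (SE 1.56, adjusted p = 0.623). It met the unadjusted rule in that fit, as did 4.67% of 38285 genes in the same direction. The estimate was 3.45 without WM983B (adjusted p = 0.748). Without the resistant WM983A library LGALS9 passed the filter, at 5.47 (edgeR adjusted p = 0.68). It passed mainly through the resistant libraries where it was high, so that fit is no separate support.

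Reads of LGALS9 may be shared with other genes. AC015688.3 overlaps 294 bases of its exons on the same strand and had 115 normalised counts in resistant WM983B, 34.2 in resistant WM278 and 25.8 in resistant WM902B, beside 0.992 to 8.70 in the sensitive lines. The near-identical copies LGALS9B and LGALS9C were at 28.8 and 13.8 in resistant WM983A and at 3.86 or below in every other library. How the authors' counting divided such reads is not given in the sources used here, so the LGALS9 values are uncertain to that extent.

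LGALS3 (galectin-3, ENSG00000131981, chr14:55124110-55145423) was the most abundant member per exon length and, among members detected in every line, the one with the widest span over the sensitive lines. It had 3224, 1885, 194, 15767 and 2833 normalised counts in the sensitive lines and 1528, 1753, 63.5, 11639 and 3214 in the resistant ones. WM1617 was highest and WM278 lowest in both states, and the sensitive lines spanned 81.3-fold. The resistant line was lower in 4 of 5 lines, 3.06-fold in WM278 (counting interval 2.3 to 4.1) and 2.11-fold in WM983A (1.98 to 2.25). Its log2 fold change over all lines was -0.40 (SE 1.16, edgeR adjusted p = 0.968), and with cell line as a block -0.60 (SE 0.298, adjusted p = 0.494).

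Of the 11 other galectin genes in the fixed list, 4 passed the filter and none was called in either direction. LGALS1, an abundant galectin, had 14160 to 27537 normalised counts in the sensitive and 7908 to 25452 in the resistant libraries (log2 fold change -0.38, SE 0.364, edgeR adjusted p = 0.861). LGALS3BP, which encodes a secreted galectin-3 partner, was at 24296 against 6865 in WM983B and 22583 against 9485 in WM902B, the lines with the highest resistant LGALS9 levels, and at 3908 against 13302 in WM983A.

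NT5E (CD73, ENSG00000135318, chr6:85449584-85495791) was lower in the resistant primary lines and higher in the resistant metastatic ones. It had 2241, 6704 and 1656 normalised counts in sensitive WM983A, WM278 and WM902B and 543, 3647 and 38.2 in their resistant counterparts. In the metastatic WM983B and WM1617 it was at 2322 and 215 in the sensitive and at 5675 and 404 in the resistant lines. It was lower by a factor of 43.4 in WM902B (counting interval 31.3 to 61.9), 4.13 in WM983A and 1.84 in WM278, and higher by a factor of 2.44 in WM983B and 1.88 in WM1617. NT5E was the 1 member of 10 whose lines split by origin in this way, and 4.6% of tested genes did.

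Over all lines the 2 directions offset each other, at -0.37 on the log2 scale (SE 1.11, edgeR adjusted p = 0.97). In a fit with cell line as a block, the log2 fold change of NT5E was -2.61 in the primary and 1.09 in the metastatic lines, a difference of 3.70 (SE 1.36, edgeR adjusted p = 1). NT5E was among the 1.85% of tested genes with an unadjusted p of 0.05 or less for this difference. The difference was looked at after the split by origin had been seen, so its p-value is no separate support for the split. The difference was 2.56 without WM902B and 4.79 without WM278. Among these same ratios, the directions were opposite between WM983A and WM983B, which come from 1 patient, and between WM278 and WM1617, which come from another.

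The genes next to NT5E on chromosome 6 were mixed. SNX14 and SYNCRIP, which follow it, had log2 ratios between -0.67 and 0.29 in all lines. RP11-321N4.5, whose span covers both SNX14 and SYNCRIP, was at -1.10 to 0.42. TBX18, the nearest tested gene before NT5E, had ratios of 1.66, -0.49, 0.67 and -2.87 in WM983B, WM278, WM1617 and WM902B, with the signs of NT5E there. It was at 0.42 in WM983A, where NT5E was lower. MRAP2, the farthest of the 3 genes before it, was at -2.54 in WM983A and -6.61 in WM902B, and CEP162 at -1.34 to 1.07. Of the 10 other genes of adenosine metabolism in the fixed list, 6 passed the filter, 1 was higher and none lower by the unadjusted rule, which called 4.42% of all tested genes. The higher one was ENTPD1 (CD39), which makes the substrate of CD73, with 33.3 to 79.2 normalised counts in the sensitive and 56.7 to 342 in the resistant libraries (log2 fold change 1.27, SE 0.511, edgeR adjusted p = 0.677). ENTPD1 was no longer called with cell line as a block (log2 fold change 0.99, adjusted p = 0.472). Its highest level, 342, was in resistant WM902B, the library with the lowest NT5E. ADA, which breaks adenosine down, was at 751 against 180 in WM983B and 435 against 177 in WM278 (log2 fold change 0.62, edgeR adjusted p = 0.769).

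TNFRSF14 (HVEM, ENSG00000157873, chr1:2555639-2565382) differed strongly in 1 line. It had 1439, 1144, 170, 1275 and 1815 normalised counts in the sensitive lines and 39.2, 1656, 331, 1027 and 1922 in the resistant ones. Resistant WM983A was 36.7-fold below its sensitive line (counting interval 26.2 to 53.2), resistant WM278 was 1.95-fold above, and the other 3 lines were within 1.45-fold. Over all lines its log2 fold change was -0.24 (SE 0.834, edgeR adjusted p = 0.973), and 0.06 without the resistant WM983A library. The antisense gene TNFRSF14-AS1, listed as RP3-395M20.8, overlaps 826 exon bases and was at 190 against 6.92 in WM983A. Whether strand was used in counting is not stated, so reads of the pair cannot be told apart.

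PVR (CD155, ENSG00000073008, chr19:44643798-44666162) had 983, 1028, 2587, 1097 and 1269 normalised counts in the sensitive lines and 2418, 1008, 1217, 1254 and 577 in the resistant ones. It was 2.46-fold higher in resistant WM983A (counting interval 2.28 to 2.66), and 2.2-fold and 2.13-fold lower in resistant WM902B and WM278. The other 2 lines were within 1.14-fold. The test over all lines gave -0.11 on the log2 scale (SE 0.402, edgeR adjusted p = 0.976), and 0.27 without WM278. AC092066.1 overlaps 2028 exon bases of PVR on the same strand, with 266 against 50.6 in WM983A, so a share of the reads may belong to either.

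CD47 (ENSG00000196776, chr3:108043091-108091862, minus strand), the signal against engulfment, differed least between sensitive lines. It had 2064, 2012, 1732, 1651 and 1285 normalised counts in the sensitive lines, which spanned 1.61-fold, and 1267, 3134, 1529, 1165 and 2751 in the resistant ones. Both groups overlapped, and the resistant lines were lower in 3 and higher in 2. Only WM902B passed 2-fold, at 2.14-fold higher (counting interval 2 to 2.29). The estimate over all lines was 0.16 on the log2 scale (SE 0.308, edgeR adjusted p = 0.944), and its sign turned without WM902B (-0.07) or WM983B (-0.01).

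CD200 (ENSG00000091972, chr3:112332347-112362812) was lower in every resistant line whose sensitive line expressed it. It had 539, 392 and 1490 normalised counts in sensitive WM983A, WM983B and WM278, and 1.15, 82.1 and 446 in the resistant lines. In sensitive and resistant WM1617 it was at 2.18 and 1.75, and in WM902B at 0 in both states, so these 2 lines could show no decrease. The sensitive level was 467-fold above the single count left in resistant WM983A (counting interval 83.5 to 18486), and 4.78-fold (3.77 to 6.11) and 3.34-fold (3 to 3.71) above the resistant one in WM983B and WM278. The log2 fold change fitted over all lines was -2.20 (SE 1.94, edgeR adjusted p = 0.852) and, with cell line as a block, -2.88 (SE 1.21, adjusted p = 0.472). Without the resistant WM983A library it was -1.89. Of its neighbours on chromosome 3, ATG3 and SLC35A5 had log2 ratios between -0.68 and 0.31. Before CD200, ABHD10 was lower in all 5 lines, at -0.20 to -1.33 with the lowest value in WM983B, C3orf52 was at -3.08 in WM983B and at -1.05 to 1.46 elsewhere, and PHLDB2 at -1.17 to 1.46. CCDC80, the third gene after CD200, was higher in resistant WM983A, WM983B, WM278 and WM902B by 2.50 to 5.18.

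**Figure D4:**
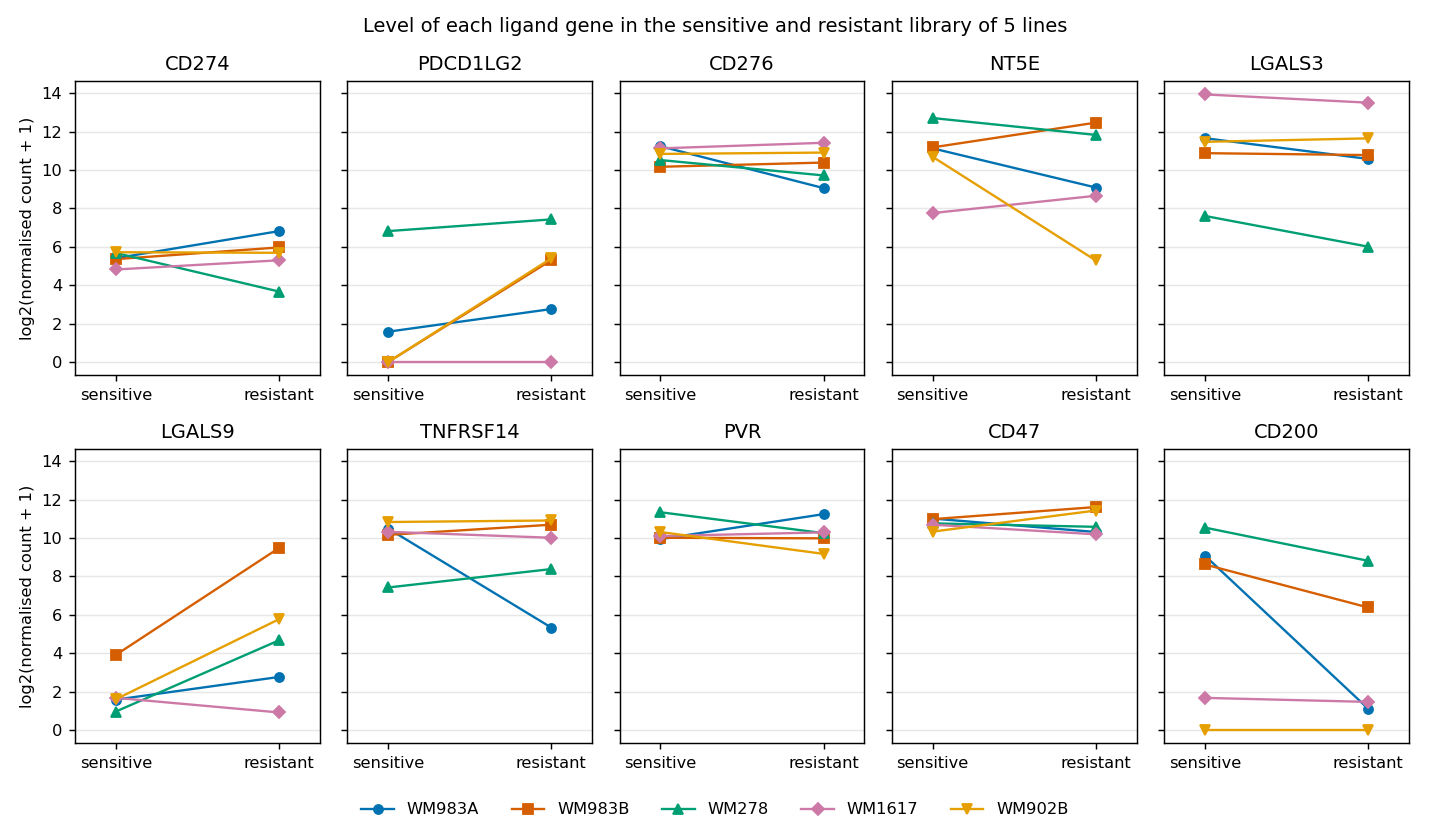
Level of each of the 10 genes as log2 (normalised count + 1) (y axis) in the sensitive and the resistant library (x axis), with a line joining the 2 states of each cell line. CD200 slopes down in WM983A, WM983B and WM278, LGALS9 slopes up in WM983B, WM278 and WM902B, TNFRSF14 has its 1 steep slope in WM983A (-5.16, against -0.31 to 0.96 elsewhere), and CD47 and CD276 stay within a narrow band apart from CD276 in WM983A.

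The fixed list of 15 receptors, mostly for these ligands and for adenosine, had 5 genes that passed the filter, namely LTBR, CD96, SIRPA, ADORA1 and ADORA2B. None was called by the unadjusted rule, which called 4.42% of all tested genes. Of the adenosine receptors, ADORA2B had 118 to 740 normalised counts over all libraries, highest in resistant WM983A. ADORA2A reached 86.9 in resistant WM983B and ADORA1 46.4 in resistant WM902B, and ADORA3 was at most 0.992. PDCD1 and TIGIT had at most 1.15 normalised counts, BTLA at most 2.31 and CD200R1 at most 1.95 in any library. SIRPA, the CD47 receptor, was expressed, with 295 to 4601 normalised counts in the sensitive lines. It was at 354 against 4071 in WM902B, where CD47 was 2.14-fold higher, and at 467 against 1805 in WM983B, where CD47 was also higher. In WM983A both were lower, with SIRPA at 1515 against 3726. In WM278 and WM1617 SIRPA had log2 ratios of 0.15 and 0.40, and CD47 was lower. CD96, a PVR receptor, was at 3.46 against 107 in WM983A, 4.83 against 223 in WM983B and 6.19 against 234 in WM902B, and higher in WM278 (1653 against 1291) and WM1617 (67.3 against 37). Over all lines its log2 fold change was -0.14 (edgeR adjusted p = 0.992).

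A fixed list of 27 other ligands of T cell, NK cell and macrophage receptors gave 17 tested genes, of which 1 was higher and 1 lower by the unadjusted rule (4.42% of all tested genes in either direction), with none past adjustment and a median log2 fold change of -0.18. The higher one was CD24, a macrophage checkpoint ligand bound by Siglec-10, at 2334 against 7.94 normalised counts in WM983A and 1643 against 17.3 in WM902B, and at 18.3 or below in the other resistant lines (log2 fold change 6.13, SE 1.67, edgeR adjusted p = 0.63). With cell line as a block CD24 was no longer called (log2 fold change 3.05, SE 1.77, adjusted p = 0.538). The lower one was ULBP2, a ligand that activates NK cells through NKG2D, at 101 to 276 in the sensitive and 33.4 to 115 in the resistant libraries and lower in 5 of 5 lines (log2 fold change -1.06, SE 0.41, edgeR adjusted p = 0.669). NECTIN2, which binds TIGIT and PVRIG, was higher in 5 of 5 lines but short of 2-fold (log2 fold change 0.97, SE 0.437, edgeR adjusted p = 0.699). HHLA2, CD86 and HLA-G were at 0 in every library. HLA-E was also at 0 in both states of WM1617 and WM902B, and at 9.51 to 173 in the other libraries. How reads shared by HLA genes were counted is not given in the sources used here, so the 0 of HLA-G is uncertain.

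By the median level per exon length, the members fell into an abundant and a scarce set. The median over the 10 libraries, in RPKM (reads scaled to library size and to kilobases of exon), was 70.1 for LGALS3, 28.1 for NT5E, 19.7 for CD276, 13.4 for CD47, 12.7 for TNFRSF14 and 7.25 for PVR. It was 0.92 for CD200, 0.732 for CD274, 0.104 for PDCD1LG2 and 0.0454 for LGALS9. Neighbours in this order had overlapping ranges, so their order was not larger than the spread between libraries. CD274, at 0.186 to 1.78, was below the lowest library of PVR (3.61), CD276 (6.34) and CD47 (9.25) in every library. NT5E ranged from 0.55 to 96.6, LGALS9 from 0.00999 to 8.18 and CD200 from 0 to 32.5. CD200 was scarce by its median only. In sensitive WM983A, WM983B and WM278 it was at 11.8, 8.56 and 32.5, above PVR there (6.16, 6.45 and 16.2).

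**Figure D5:**
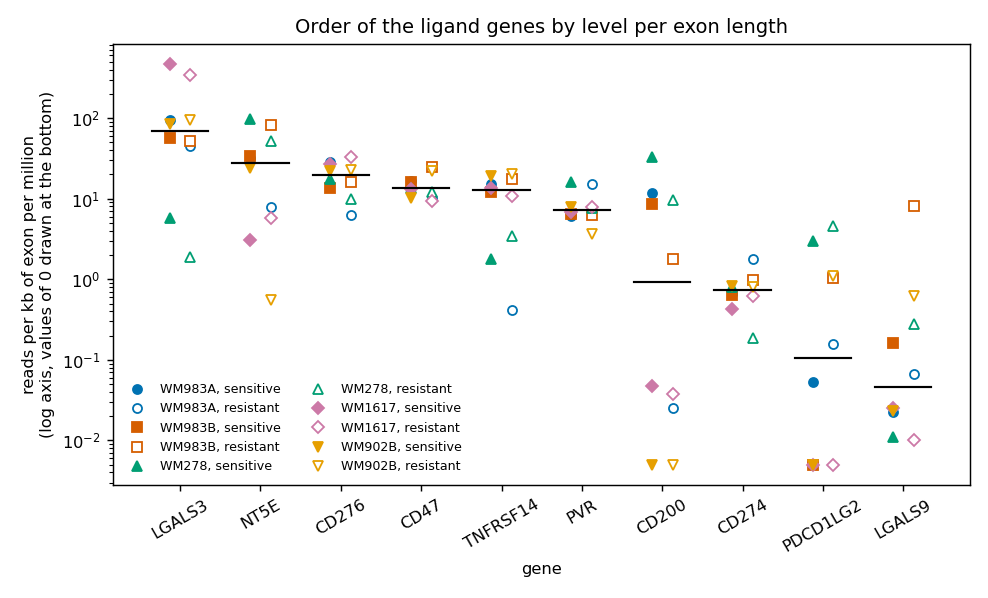
Level per exon length (y axis, log scale, RPKM, values of 0 at the bottom) of each gene (x axis) in 5 sensitive (filled) and 5 resistant (open) libraries. Black bars are medians, from 70.1 for LGALS3 to 0.0454 for LGALS9, and the points of neighbouring genes overlap.

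The sensitive lines of 1 patient could already differ. Between sensitive WM278 and WM1617, 6 of 10 members differed at least 2-fold, against 35.8% of tested genes. NT5E was at 6704 against 215, CD200 at 1490 against 2.18, PDCD1LG2 at 112 against 0, and PVR at 2587 against 1097, all higher in the primary line. LGALS3 (194 against 15767) and TNFRSF14 (170 against 1275) were higher in the metastatic one. Between sensitive WM983A and WM983B, 3 of 10 differed 2-fold, against 11.4% of tested genes. These were CD276 at 2418 against 1152, LGALS9 at 1.98 against 14.0, and PDCD1LG2 at 2 counts against 0. LGALS9 and PDCD1LG2 did not pass the filter, while both shares here cover only genes that did, so of these 3 only CD276 is comparable.

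The genes whose levels ran most like each member's were found by Pearson's r of log2 (normalised count + 1) over the 10 libraries, which share 5 lines, so r is a description. For the 8 members in the filter, the closest gene was HIST1H1E for CD274 (r = 0.930), TIMP1 for CD276 (0.95), NAALAD2 for NT5E (0.930), QPCT for LGALS3 (0.979), RP11-961A15.1 for TNFRSF14 (0.971), MARK2 for PVR (0.927), USP30 for CD47 (0.925) and CRCP for CD200 (0.979). The second closest were RP11-144G6.12, MFAP1, SLC9A7, RP11-152N13.16, GXYLT2, HN1L, IFI6 and SLC20A2 in the same order, at 0.922 to 0.978.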

How the data were processed

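Single-end 75-cycle mRNA sequencing of 10 libraries was analysed from the deposited tables. The authors aligned reads to GRCh38 with HISAT2 and quantified and normalized genes in StrandNGS, with versions and annotation not given in the sources used here. The deposited raw values are expected counts, which were rounded. The deposited normalized values are log2 ratios within lines. They are the authors' comparison and were used only to recover 455 raw values of sensitive WM983B that had been turned into dates, of which none was a member.

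Genes were filtered with filterByExpr, scaled by TMM and tested two-sided with edgeR 4.0.16 (glmQLFit, glmQLFTest, Benjamini-Hochberg) in R 4.3.3, 5 against 5 libraries without a block, since the study's description of its sequencing test names no pairing. Ratios used normalised counts plus 1. Alternatives were cell line as a block, limma 3.58.1, DESeq2 1.42.0, RLE size factors, other filters, other pseudocounts and left-out lines, together with fits of LGALS9, PDCD1LG2 and the NT5E origin difference chosen after seeing the data. Each resistant line descends from the sensitive line of its name, which gives the pairing, and paired deviations correlated at -0.06 in WM983A and 0.38 to 0.68 in the others. Permutation tests, figures and joins used scipy 1.17.1, pandas 2.3.3, numpy 2.4.6 and matplotlib 3.10.9 under Python 3.11.15. Positions and exon lengths are those of GENCODE release 44. The steps were tested on simulated data.

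Replicates of a group are different lines, so p-values of the main fit and of the permutation test measure the spread between lines. Both leave the pairing of sensitive and resistant libraries unused. With cell line as a block, as in the origin fit, p-values measure the spread of the changes within lines. No fit models the patient that lines share. The members, lists and tests were chosen with earlier results of these data known. Named genes are all members, up to 4 genes per list by smallest p or beside a member's result, the 2 genes most like each member, and 3 neighbours on each side of CD274 with PDCD1LG2, NT5E and CD200. Intervals and the floor cover counting error only.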

Additional observations from a re-analysis of the deposited data

Results flagged for a closer look

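Of 30 sets of 5 values (each member's log2 level in the sensitive lines, in the resistant lines, and its log2 ratios), 6 had 1 value whose gap to the nearest other took up more than 0.71 of the whole range, a limit that chance passes in about 1 set of 20. In sensitive WM278, PDCD1LG2 was far above the other sensitive lines at a log2 (normalised count + 1) of 6.82 and PVR at 11.34, and TNFRSF14 was far below them at 7.42. In sensitive WM983B, LGALS9 stood above the others at 3.91, which is 14 counts. In WM983A the log2 ratios of TNFRSF14 (-5.16) and CD200 (-7.97) lay far below those of the other lines.

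NT5E was listed here apart from that rule, after its split by origin had been seen. Its change in the metastatic lines exceeded that in the primary lines by 3.70 on the log2 scale. The test of this difference was significant before adjustment only (edgeR adjusted p = 1). NT5E was lower in 3 of 3 primary lines and higher in 2 of 2 metastatic lines.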

How the results depend on the processing

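With the replicate block for cell line, 0 of 8 members were called, as without it. Of 7 genes of the fixed lists called by the unadjusted rule, 2 (ULBP2 and IFNGR2) were also called with the block and 5 (CD24, ENTPD1, NLRC5, TYRP1 and NGFR) were not, while 3 others were called with it alone (TYR and LYZ lower, JUN higher). The block changed no other call of a member or list gene, and over all genes the count went from 764 to 956. That count, of genes at an unadjusted p of at most 0.05 with a 2-fold change, became 2258 with no filter on low counts, 208 without both lines WM983A and WM983B and 2017 without both lines WM278 and WM1617, and ran from 420 to 1493 with 1 line left out, lowest without WM902B (422 without WM983B) and highest without WM1617. Adjusted calls, 0 by edgeR, were 105 with DESeq2 and 1 without WM278 and WM1617. Members called at the unadjusted threshold were 1 with no filter, without both WM278 and WM1617, and without the resistant WM983A library, and 0 to 1 with 1 line left out. That member was LGALS9 each time, since there was no filter or the filter then kept it. The filter kept it mainly through resistant libraries where it was high, so these calls are no separate support. Without the resistant WM983A library the same rule called 748 genes in all. Signs turned for fitted log2 fold changes near 0. CD274 was at -0.07 without WM983A, -0.08 without its resistant library and -0.37 without WM983A and WM983B. TNFRSF14 was at 0.15, 0.06 and 0.01 in the same fits. CD276 was at 0.02 without WM983A, NT5E at 0.06 without WM278, and CD47 at -0.07 without WM902B and -0.01 without WM983B. PVR was at 0.27 without WM278, 0.05 without WM902B and 0.28 without WM278 and WM1617. With 1 line left out at a time, the ranges were -0.07 to 0.71 for CD274, -0.58 to 0.02 for CD276, -1.23 to 0.06 for NT5E, -0.50 to 0.15 for TNFRSF14, -0.57 to 0.27 for PVR and -0.07 to 0.35 for CD47. The cause was not tested. CD200 gave no value without WM278, without WM983B, without WM983A and WM983B, or with at least 10 counts required in every library, since it was then filtered out. LGALS9, PDCD1LG2 and the NT5E difference between origins kept their direction in all alternatives run. Leaving out lines could hardly turn these signs. No line had lower PDCD1LG2, and the 1 line with lower LGALS9, WM1617, held 2 against 1 counts. NT5E was lower in every primary line and higher in every metastatic one. Of 200 alternative values of the within-line ratios 195 stayed within the counting interval and none that was 2-fold turned sign. The 5 others were PDCD1LG2 in WM983B and WM902B (3.13 and 3.21 with a pseudocount of 5) and, with library totals, NT5E in WM278 and LGALS3 in WM983A and WM1617. A pseudocount of 0.5 put PDCD1LG2 in WM983B and WM902B at 6.29 and 6.38. PDCD1LG2 in WM1617 and CD200 in WM902B had no interval and were counted as staying. Intervals at low counts were too wide to leave easily. Without a length correction, CD276 and CD47, CD200 and CD274, and PDCD1LG2 and LGALS9 exchanged places in the order of levels. Scaling by library totals moved the median gene by at most 0.102 on the log2 scale, in resistant WM983B. Lines without replicate libraries and very low counts limit CD274, PDCD1LG2, LGALS9 and CD200 most.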
